A study of Arabidopsis thaliana with 6 samples.

Results

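Small secreted peptide genes were read from 20 probe sets on 6 expression arrays of Arabidopsis thaliana flowers. They were chosen by name: a probe set counted if the platform annotation gave it a single gene whose symbol starts with LCR, SCRL, PDF1, PDF2, CLE, RTFL, DVL, EPFL, PSK, IDL, GASA or LTP, followed by a digit, a point or the end of the symbol. This took 20 of 13513 single-gene probe sets, on arrays with 22810 probe sets in all. Only 4 of these 12 symbol starts had a member, with 9 for LCR, 6 for CLE, 3 for PDF1 and 2 for PDF2. The other 8 (SCRL, RTFL, DVL, EPFL, PSK, IDL, GASA and LTP) had no member, because no symbol in the annotation used here starts that way.

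All samples were total RNA of flowers at stage 15. One group was 3 samples of wild-type Columbia plants. The other was 3 samples of transgenic plants that overexpress miR159a, a microRNA known to silence MYB regulators of the anther. The sources used here do not give the promoter of the transgene, the number of transgenic lines or the number of plants behind a sample. The sample labels name Columbia for the wild type only. Each group carries the letters a, b and c, and p-values measure only how far these samples spread, which may be a technical spread. The question here was how the levels of peptide genes differ between the groups.

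These genes encode short proteins that enter the secretory pathway. Plant defensins are small proteins folded by several disulphide bridges between cysteines, and many of them inhibit fungi. The LCR genes, for low-molecular-weight cysteine-rich, form a wider family related to defensins and to pollen coat proteins of Brassica. CLE genes encode precursors from which a short peptide hormone is cut, which is sensed by leucine-rich repeat receptor kinases in meristems and vascular tissue. The signals below are intensities on a linear scale as the authors deposited them, and signals of different probe sets are on no common scale, so no order between genes is read from them.

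The labels and the families were checked first. By RefSeq synonyms, 5 of the LCR symbols are defensin genes under another name: LCR67 is PDF1.1, LCR66 is PDF2.4, LCR68 is PDF2.3, LCR69 is PDF2.2 and LCR72 is PDF2.6. With these, the 20 probe sets hold 4 class 1 defensins, 6 class 2 defensins, 3 other LCR genes and 6 CLE genes. The remaining member, LCR (AT1G27340), is LEAF CURLING RESPONSIVENESS, an F-box gene and a known target of another microRNA, miR394. It meets the naming rule but is no small secreted peptide, so 19 of the 20 fit the description. RefSeq matched 19 of the 20 by gene identifier, CLE21 being the exception, and each member gene had 1 probe set. RefSeq lists 85 genes under a numbered LCR name, of which the 5 defensins and the 3 other LCR genes above were read. It lists 30 under a CLE name, and 6 CLE genes were read, with CLE21 unmatched.

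In both groups replicate a lay away from replicates b and c on the second principal component, which held 29.7% of the variance, against 48.0% for the first, which separated the groups. Overexpressor replicate a also read 3079.6 for 25S ribosomal RNA, a control probe set, against 11.1 to 51.2 on the other arrays. Among the 20 members, 4 were lowest on the a arrays of both groups and 2 highest there. Array medians ran from 85.3 to 96.9. None of 12 floral organ genes looked for had a named single-gene probe set, so the flower label was not checked with them. Of the other marker lists, 4 photosynthesis genes were read, with summed signals of 7600.4 to 11267.6 in wild type and 10123.1 to 14313.7 in the overexpressor. In each of these 4 the groups overlapped, and 0 passed the test described below (limma adjusted p from 0.839 to 0.926). Their list was taken from earlier results of these data. The mature pollen markers are given below.

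Of the 20 members, 1 fell and 0 rose in the overexpressor. There were 11 bright enough to be tested and 9 below the limit, which left out the 25% of probe sets with the lowest mean. That limit corresponded to a signal of 18.4. Calls rest on limma with Benjamini-Hochberg adjustment over 17059 probe sets and a threshold of 0.05, on the scale log2(signal + 16), which understates changes of dim probe sets. Of all tested probe sets, 2.17% were called lower and 0.135% higher, and the 1 of 11 tested members rests on a single gene. At an unadjusted p under 0.05 there were 2 members, LCR72 and CLE44, both lower, against 8.79% of all tested probe sets in either direction. The median log2 fold change of the 20 members was 0.03, and that of all probe sets other than controls was 0.03 as well.

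**Figure D1:**
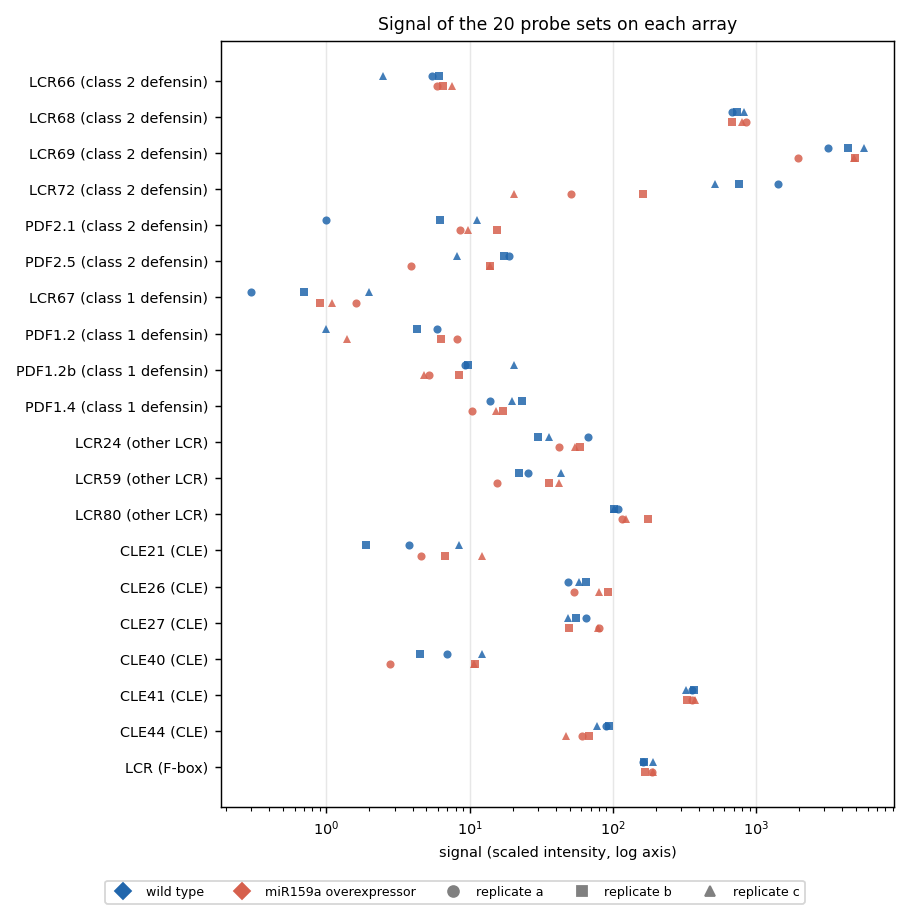
Signal (scaled intensity, log axis) of the 20 probe sets on each array, by family, with wild type in blue, the miR159a overexpressor in red and a marker shape for each replicate letter. LCR72 alone shows a wide gap, with wild type from 514.7 to 1429 and the overexpressor from 20.4 to 163.7, while the groups of CLE44, PDF1.2b and LCR80 separate by small margins.

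The class 2 defensin gene LCR72 (AT2G02140) was the member that fell. Its signal in wild type was 1429 in replicate a, 758.8 in b and 514.7 in c. In the overexpressor it was 51.0 in a, 163.7 in b and 20.4 in c. The groups did not overlap, and the highest overexpressor array stood well below the lowest wild-type array. The mean went from 901 ± 473 (SD, n = 3) to 78.4 ± 75.5, which is 8.70% of the wild-type mean. LCR72 fell by 3.47 on the log2 scale (SE 0.58, limma adjusted p = 0.0210), with a 95% confidence interval from -4.81 to -2.13. In 370 called falls over the whole table, 81 were larger.

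The spread of LCR72 between samples of a group was wide. Its SD on the log2 scale was 0.73 in wild type and 1.16 in the overexpressor, against medians of 0.21 and 0.22 over the tested probe sets. Taken letter by letter, the log2 fold change was -4.43 for a, -2.11 for b and -3.87 for c. The direction held for each letter, but the call lay close to the threshold. LCR72 passed in 9 of 16 alternative settings and failed in 7. Where the letters were taken as pairs, the limma adjusted p was 0.00411. The settings in which it failed follow. With no filter on dim probe sets the adjusted p was 0.0540, and with a pseudocount of 1 it was 0.0582. Leaving out 1 wild-type array took it to 0.0630 for replicate a and 0.0982 for b, and leaving out 1 overexpressor array took it to 0.0735 for a and 0.0687 for c. Without both arrays lettered a it was 0.149, with a log2 fold change of -2.99.

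LCR72 was set beside markers of mature pollen, which flowers at this stage carry. The list of markers was taken from earlier results of these same data. The count of falls among them is therefore no independent result, and neither is their likeness to LCR72 in level or array order. The 13 markers include the pollen tube receptor kinase genes ANX1 and ANX2 and the sperm histone gene MGH3. All but MGH3, which lay below the limit, were tested, and of these 12, 9 fell and 0 rose. Some passed the limit of 18.4 only through their wild-type signals, so the count depends in part on the filter. On the overexpressor arrays ANX1 read 1.6 to 6.3 and ACT12 read 1.3 to 11.7. Not called were AGL65, AGL66 and AGL104. The means of these genes were at 88.4%, 34.4% and 34.8% of wild type (limma adjusted p = 0.966, 0.187 and 0.231). With no filter on dim probe sets 4 of the 13 passed, namely ANX2, BUPS1, LRX8 and LRX9. The summed signal of the 13 markers was 1568.8 to 3924.8 in wild type and 161.1 to 537.0 in the overexpressor. None of the 13 was at 0 on any array. On the overexpressor arrays LCR72 was at 5.66% of its wild-type mean in a, 18.2% in b and 2.26% in c. The medians of the 13 markers were 5.34%, 21.0% and 5.99%. Those markers and LCR72 were read on the same arrays, so they share any effect of an array.

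The order of the samples within a group was shared with the markers in wild type, and with fewer of them in the overexpressor. In wild type LCR72 was at 159%, 84.2% and 57.1% of its mean in a, b and c, and the marker medians were 153%, 87.8% and 60.6%. All 13 markers had the wild-type arrays in the same order as LCR72, an order shown by 22.6% of all tested probe sets and by 70.0% of the called falls. In the overexpressor 5 of 13 markers had the order of LCR72, which was shown by 11.7% of tested probe sets and 55.4% of called falls. Since the list of markers came from these same data, the shared order is a description and no test. Fewer pollen grains in a sample and less of this RNA per cell cannot be told apart in RNA of whole flowers, and the part of pollen in the fall of LCR72 was not tested.

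**Figure D2:**
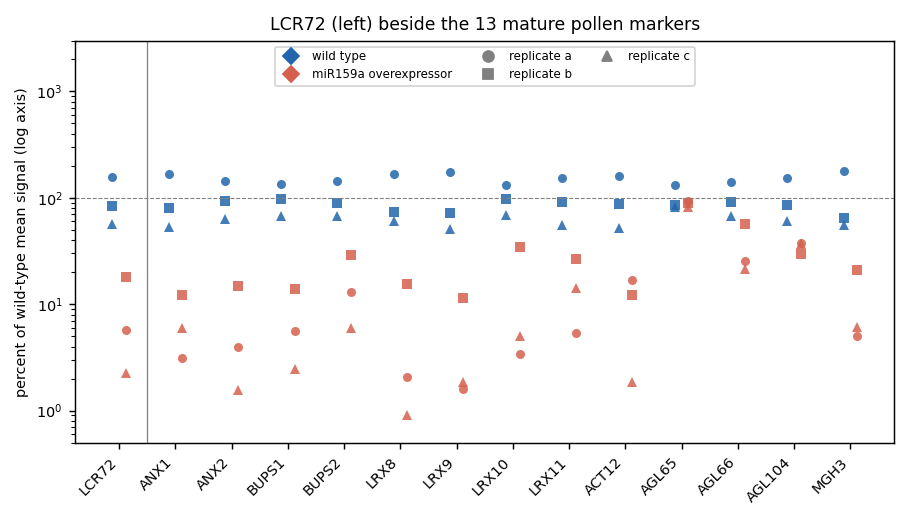
Signal as a percent of the gene's wild-type mean (log axis; the dashed line is that mean) for LCR72, at the left, and the 13 mature pollen markers, with wild type in blue, the overexpressor in red and a marker shape for each replicate letter. LCR72 lay between 2.26% and 18.2% on the overexpressor arrays, while AGL65, at 82.1% to 93.4%, was the marker that stayed nearest to its wild-type level.

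LCR72 sits among other class 2 defensin genes. In the RefSeq gene order of the TAIR10.1 assembly, the protein-coding genes of this stretch of chromosome 2 run LCR69, AT2G02103, PDF2.1, LCR68, LCR72 and LCR73. Of these, LCR69, PDF2.1, LCR68 and LCR72 had a named probe set. No coordinates are given, because the sources used here name no build for the array.

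LCR68 (AT2G02130), next to LCR72, was not called. Its signal was 681.9, 741.5 and 822.8 in wild type and 848.5, 674.2 and 793.9 in the overexpressor, for a, b and c. The groups overlapped throughout. The log2 fold change was 0.04, with a 95% confidence interval from -0.33 to 0.41 (limma adjusted p = 0.990), whose lower end lies far above the value of LCR72.

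LCR69 (AT2G02100) gave signals of 3174.5, 4363.2 and 5649.4 in wild type and 1974.4, 4927.1 and 4791.5 in the overexpressor. In both groups the array lettered a was the lowest of the group, and the groups overlapped. Its log2 fold change was -0.25 (SE 0.38, 95% confidence interval -1.11 to 0.62, adjusted p = 0.966). Without both a arrays its log2 fold change was -0.03 (adjusted p = 0.976). PDF2.1 (AT2G02120) was dim, with 1.0, 6.2 and 11.2 in wild type against 8.6, 15.5 and 9.8 in the overexpressor, which overlap.

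The change of LCR72 was set against that of LCR68 and LCR69, the neighbours bright enough to be tested, within every array. The log2 ratio of LCR72 to LCR68 dropped by 3.51, and the ratio to LCR69 dropped by 3.22. In both ratios the overexpressor arrays lay below the wild-type arrays. An exact permutation test, two-sided, gave p = 0.1 for each, which is the smallest that 3 samples against 3 allow, and 0.1 after Benjamini-Hochberg adjustment over 3 ratios. This test therefore cannot pass 0.05 at this number of samples, whatever the difference. Outside the defensins, 4 further genes within 5 places of this stretch had a named probe set, 3 were tested and 0 were called, with log2 fold changes from -0.02 to 0.17 among those tested. These flanking genes were looked up after the value of LCR72 was known.

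**Figure D3:**
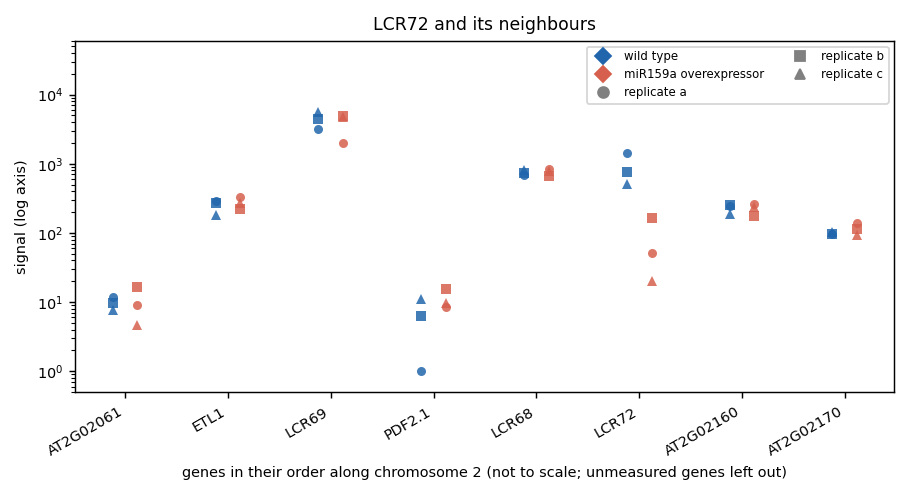
Signal (log axis) of LCR72 and the measured genes around it, in their order along chromosome 2 and not to scale, with wild type in blue, the overexpressor in red and a marker shape for each replicate letter. Among these 8 genes the groups separate at LCR72, and at LCR68, its neighbour, they span 681.9 to 822.8 and 674.2 to 848.5.

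The other class 2 defensins were dim in both groups. LCR66 read 5.5, 6.1 and 2.5 in wild type and 5.9, 6.5 and 7.5 in the overexpressor. PDF2.5 read 18.9, 17.5 and 8.2 against 3.9, 13.8 and 14. Both pairs of groups overlapped, and the log2 fold changes were 0.13 and -0.22. They lay below the limit for testing, so they are given by level alone.

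All 4 class 1 defensins were dim as well, with signals between 0.3 and 23.1. PDF1.2 (AT5G44420), a widely used marker of defence through jasmonate and ethylene, read 5.9, 4.3 and 1.0 in wild type and 8.2, 6.3 and 1.4 in the overexpressor. On all 6 arrays this defence transcript stayed below the limit for testing. LCR67 read 0.3 to 2.0 over all 6 arrays. PDF1.4 read 13.9, 23.1 and 19.8 against 10.4, 17.0 and 15.3, with a log2 fold change of -0.21.

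PDF1.2b (AT2G26020), a close copy of PDF1.2, read 9.3, 9.8 and 20.3 in wild type and 5.2, 8.4 and 4.8 in the overexpressor. The groups did not overlap, at levels below the limit for testing. Its log2 fold change was -0.38, and in the fit without a filter its adjusted p was 0.645 (95% confidence interval -0.80 to 0.04). The suffix of this probe set marks probes that can match other genes, so its signal may include close copies.

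The 3 other LCR genes were tested and 0 were called. LCR80 (AT5G38330) read 108.1, 101.7 and 102.2 in wild type and 115.7, 176.7 and 124.6 in the overexpressor. All overexpressor arrays lay above all wild-type arrays, with replicate b apart from the other two. The log2 fold change was 0.35 (SE 0.18, 95% confidence interval -0.07 to 0.77, adjusted p = 0.703).

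LCR24 read 67.0, 30.1 and 35.9 against 42.1, 58.8 and 54.2, and LCR59 read 25.4, 22.0 and 43.5 against 15.6, 36.0 and 42.1. In both the groups overlapped, and the log2 fold changes were 0.21 and 0.01. The confidence intervals ran from -0.35 to 0.76 and from -0.62 to 0.64 on the log2(signal + 16) scale, and can correspond to wider changes of the signal itself.

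Of the 6 CLE genes, 4 were tested and 0 were called. CLE41 and CLE44 encode precursors of the same peptide, TDIF, which keeps vascular stem cells dividing and blocks xylem formation through the receptor PXY. CLE41 (AT3G24770) read 359.0, 368.8 and 325.7 in wild type and 359.0, 332.1 and 374.3 in the overexpressor. These values overlap closely, and the log2 fold change was 0.02 (SE 0.14, 95% confidence interval -0.32 to 0.35, adjusted p = 0.994).

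CLE44 (AT4G13195) read 89.6, 94.4 and 77.1 in wild type and 61.1, 68.1 and 46.9 in the overexpressor. The groups did not overlap. The mean went from 87.0 ± 8.93 (SD, n = 3) to 58.7 ± 10.8, a log2 fold change of -0.47 (SE 0.17, 95% confidence interval -0.86 to -0.08). Its unadjusted p was 0.0242, and over all tested probe sets its limma adjusted p was 0.405, so it did not pass. Over 16 alternative settings the log2 fold change ran from -0.57 to -0.30. In the 15 of them that tested it, the adjusted p ran from 0.142 to 0.888.

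The log2 ratio of CLE44 to CLE41 dropped by 0.49 and was lower on every overexpressor array than on any wild-type array (exact permutation test, two-sided, p = 0.1, the smallest that 3 samples against 3 allow, and 0.1 after adjustment over the 3 ratios). Letter by letter the difference in log2 fold change was -0.45 for a, -0.25 for b and -0.76 for c. Whether the 2 genes differ in their response was thus not settled by this test.

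CLE26, which acts on root vascular tissue, read 49.0, 65.1 and 58.4 in wild type and 53.8, 93.1 and 80.3 in the overexpressor. CLE27 read 65.4, 55.4 and 48.5 against 80.0, 49.4 and 79.1. The groups overlapped in both, and the log2 fold changes were 0.30 (95% confidence interval -0.17 to 0.77) and 0.22 (-0.24 to 0.68).

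CLE40, a signal of the root stem cell niche, and CLE21 were dim. CLE40 read 4.5 to 12.3 in wild type and 2.8 to 11 in the overexpressor, and CLE21 read 1.9 to 8.5 and 4.6 to 12.2. Neither group of arrays rose above the limit for testing.

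The F-box gene LCR, brought in by its symbol, read 162.2, 163.9 and 189.9 in wild type and 188.6, 167.9 and 189.7 in the overexpressor. The groups overlapped, with a log2 fold change of 0.08 (SE 0.15, 95% confidence interval -0.26 to 0.42, adjusted p = 0.976).

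**Figure D4:**
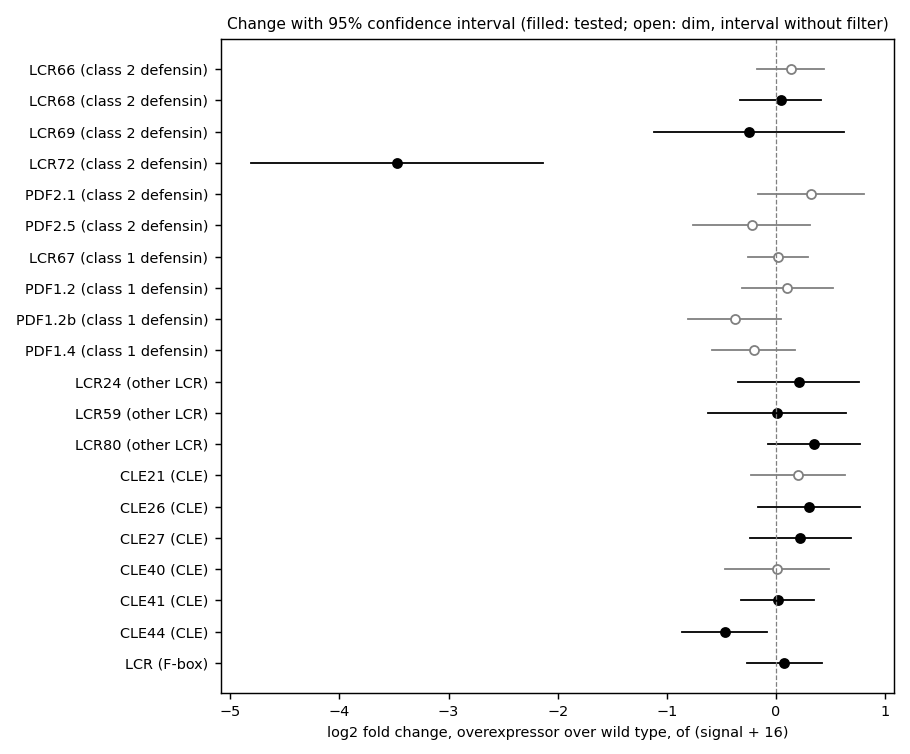
Log2 fold change of (signal + 16), overexpressor over wild type, for the 20 probe sets by family, with lines for the 95% confidence interval. Filled points were tested after the filter, and open points are the 9 dim probe sets with intervals from the fit without a filter. LCR72 lies at -3.47, and the other 19 points lie between -0.47 and 0.35.

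Across the 20 members, the groups did not overlap in 4. The overexpressor was lower in LCR72, CLE44 and PDF1.2b and higher in LCR80. Over all 22746 probe sets other than controls, dim ones included, 7.17% were separated with the overexpressor lower and 6.60% with it higher, so 3 and 1 of 20 are near the background. When all 20 members were tested without a filter, 0 passed, against 1.35% of all probe sets. The same 2 members, LCR72 and CLE44, had an unadjusted p under 0.05 there, against 8.78% of all probe sets.

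Few partners of these peptides could be read. Of 26 receptor and co-receptor genes looked for, 3 had a named single-gene probe set, and 0 of these 3 were called. PSY1R, a receptor kinase for a sulphated peptide, read 34.9, 28.7 and 26.4 in wild type and 35.2, 11.1 and 26.6 in the overexpressor, with a log2 fold change of -0.24. The co-receptor kinase genes of CLE signalling CIK2 (AT2G23950) and CIK4 (AT5G45780) had log2 fold changes of 0.36 and 0.28.

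The groups of CIK4 did not overlap, with 25.8, 23.7 and 17.5 in wild type and 29.5, 33.4 and 27.9 in the overexpressor (adjusted p = 0.743). Of 9 peptide genes outside the naming rule, 1 was read: CLV3, which limits the stem cell pool of the shoot, was at 1.3 to 3.3 on all arrays. STOMAGEN, a peptide gene that raises stomatal density and is also known as EPFL9, was found by that synonym after the annotation was seen. It read 89.0, 140.2 and 128.5 in wild type and 114.6, 181.7 and 189.6 in the overexpressor, which overlap (log2 fold change 0.39, adjusted p = 0.781). Of 9 gibberellin perception genes, looked for beside the GASA family, 4 were tested and 0 were called.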

How the data were processed

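Values were 1 signal per probe set and array, deposited by the authors as intensities on a linear scale. The sources used here name neither software nor normalisation. With 2% trimmed from each end, every array had a mean signal of 200.0, so the signals had been scaled. No further normalisation was applied, since array medians spanned 0.16 log2. Signals were put on log2(signal + 16), 64 control probe sets and the 25% with the lowest mean were left out (5687), and 17059 were fitted in R 4.3.3 with limma 3.58.1 (lmFit, then eBayes; two-sided). The fit was also run on simulated data, with the same spread for every probe set and no pairing of letters. That setting does not cover a spread as wide as that of LCR72. The number of arrays limits the precision. Gene names came from a platform annotation of 14016 probe sets, 503 of them with several genes, and the RefSeq table of TAIR10.1; the other probe sets are unnamed here.

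The members, gene lists and tests were chosen with earlier results of these data known. A rule named 14 members (called, of the highest signal, of the largest change or of a small family), and the other 6 are given as well. Of 10 tapetum genes looked for, A9 and AMS were read, both dim, and no gene of peptide processing was read. Deviations from the group means correlated with r = 0.57, 0.36 and 0.38 between the arrays sharing a, b and c, against at most 0.10 for other letters, so the letters were taken as pairs in the alternative with a block. The main fit and the permutation test of the ratios treated all arrays as independent. Their standard errors, intervals and p-values therefore leave this pairing out.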

Additional observations from a re-analysis of the deposited data

How the results depend on the processing

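LCR72 kept its direction under all 16 alternatives, with log2 fold changes from -4.09 to -2.78 and adjusted p from 0.00298 to 0.149, and it passed in 9 of them. No other member passed under any alternative, the lowest adjusted p being 0.142, and 0 rose. A pseudocount of 1, no filter and leaving out both arrays lettered a each gave 0 members called lower instead of 1, and leaving out 1 array gave 0 to 1. For LCR72 the replicate block gave adjusted p = 0.00411 and changed no call of a member. Against 370 lower and 23 higher over all probe sets, a pseudocount of 1 gave 222 and 13, the replicate block 570 and 71, and leaving out both a arrays 84 and 9. Leaving out the lowest 50% gave 180 lower, where fewer probe sets were tested, and array weights gave 39 higher. With 1 array left out there were 30 to 386 lower and 0 to 16 higher, the lowest of both without wild-type replicate b. The median log2 fold change of the members ran from 0.010 to 0.091 there. Fewer arrays or probe sets entered some of these fits; otherwise the cause was not tested. Dim members are limited by the floor of the scale.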
